A study of Homo sapiens with 24 samples.

Results

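The MAP kinase phosphatases of the dual-specificity phosphatase (DUSP) family were described in HAP1 cells on 24 arrays. The 10 genes DUSP1, DUSP2, DUSP4, DUSP5, DUSP6, DUSP7, DUSP8, DUSP9, DUSP10 and DUSP16 were taken by symbol, out of 22109 genes with a probe set of their own. Each of the 10 had exactly 1 such probe set, so choosing the probe set with the highest mean signal, the only measured value in the rule, decided nothing. Members were chosen by name, not one by one by their change. All 10 passed the filter on low values that kept 17339 genes for testing. The family was proposed with earlier results of these data known, in which DUSP1 and DUSP10 responded, so the counts of members called are not independent support for its choice.

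MAP kinases are switched on by phosphorylation of a threonine and a tyrosine in their activation loop. A MAP kinase phosphatase removes both phosphates and so turns the kinase off, and many of these genes are themselves induced by the pathway that they restrain. By textbook grouping, DUSP1, DUSP2, DUSP4 and DUSP5 encode inducible nuclear enzymes, DUSP8, DUSP10 and DUSP16 encode enzymes that prefer the stress-activated kinases JNK and p38, and DUSP6, DUSP7 and DUSP9 encode cytoplasmic enzymes that prefer ERK.

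HAP1 is a near-haploid human line that descends from the chronic myelogenous leukaemia line KBM-7. The lines were bought: S51A (named for a change of the serine in eIF2-alpha that is phosphorylated under stress), HRI, GCN2, PKR and PERK (each named for the loss of that eIF2-alpha kinase) and the parental line PAR. Cells had SA100 for 2 h (6 arrays, 1 per line), lomustine, a DNA-alkylating chemotherapy drug, at 200 µM for 2 h (9 arrays) or no drug (9 arrays). In the lomustine and untreated arms, S51A, HRI and PAR had 2 arrays each, A and B, and the other lines 1. The agent field of the SA100 arrays names lomustine, against their titles. They are taken by title here, as sodium arsenite (an oxidative and protein-damaging stress) at 100 µM, which the treatment text lists beside lomustine. All lines were cultured alike, and whether each edited line is a single clone was not given in the sources used here. The labels do not say that A and B are separate cultures, so the spread between them may be technical. P-values within lines and of response differences rest on this spread. Those across lines also take in how the lines differ in their responses.

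Values are log2 signals, in which 1 unit is a doubling, and they compare a gene with itself across arrays, not gene with gene. The median of all values was 2.42, and a signal below it was not told from background. The array of S51A with lomustine B stood apart, where 8.37% of probe sets lay over 1 log2 unit away from the median of all arrays, against at most 3.16% on any other. The genes named by the lines did not check the labels. The line minus PAR was -0.03 for EIF2AK1 (which encodes HRI) in HRI, -0.25 for EIF2AK4 (GCN2) in GCN2, -0.19 for EIF2AK2 (PKR) in PKR, -0.59 for EIF2AK3 (PERK) in PERK and -0.04 for EIF2S1 (eIF2-alpha) in S51A. None passed the test, and a probe set can lie outside the edited stretch. Of the blood markers, PTPRC and LYZ lay below the median of all values on all 24 arrays and GATA1, an erythroid and megakaryocytic factor, above it on all 24. Linear signals summed over 8 blood markers ran over 48.3 to 54.9 with SA100, 41.6 to 56.5 with lomustine and 42.0 to 58.3 with no drug, and no tested marker passed between arms. For 6 fibroblast markers the sums were 35.1 to 45.0 with SA100, 38.4 to 46.5 with lomustine and 36.4 to 41.7 with no drug. DCN and LUM lay below the median of all values on every array, and COL1A1 and THY1 above it on all 24. For 6 epithelial markers the sums were 47.3 to 59.1 with SA100, 46.7 to 126 with lomustine and 44.9 to 137 with no drug. EPCAM, KRT8 and KRT18 lay above the median of all values on all 24 arrays, while CDH1 reached it on 7. Of the 6, EPCAM varied most between arrays, from 2.57 to 6.66. The part of any marker in the results was not tested.

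Promoter sequences of the genes that responded are shown because the control of these genes is classically traced to elements just before their start. The RefSeq table (GRCh38.p14) held windows of 250 bases before to 50 bases after the start for 8 of the 10 members (all but DUSP4 and DUSP5). The 250 bases before the start are printed 5′ to 3′ on the coding strand, the minus strand in each case, for DUSP1 (chr5:172771196-172771445), DUSP8 (chr11:1572272-1572521), DUSP10 (chr1:221742090-221742339) and DUSP16 (chr12:12562864-12563113). Capitals mark matches to the cAMP response element TGACGTCA in DUSP1 and DUSP8 and to the EGR element GCGNGGGCG in DUSP16.
DUSP1: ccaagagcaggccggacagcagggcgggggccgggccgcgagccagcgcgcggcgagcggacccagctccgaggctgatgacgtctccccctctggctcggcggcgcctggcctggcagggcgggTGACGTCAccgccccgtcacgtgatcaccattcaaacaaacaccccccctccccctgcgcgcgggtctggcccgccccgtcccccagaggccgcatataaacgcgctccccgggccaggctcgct
DUSP8: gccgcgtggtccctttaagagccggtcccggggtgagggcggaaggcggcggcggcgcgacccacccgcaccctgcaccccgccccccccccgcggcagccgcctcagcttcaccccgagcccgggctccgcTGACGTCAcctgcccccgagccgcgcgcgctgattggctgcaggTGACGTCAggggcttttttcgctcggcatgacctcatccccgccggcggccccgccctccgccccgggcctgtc
DUSP10: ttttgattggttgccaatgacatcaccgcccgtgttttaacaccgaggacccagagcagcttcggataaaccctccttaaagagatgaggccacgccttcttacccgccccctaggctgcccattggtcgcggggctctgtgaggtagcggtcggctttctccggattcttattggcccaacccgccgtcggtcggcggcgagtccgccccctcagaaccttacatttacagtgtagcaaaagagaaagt
DUSP16: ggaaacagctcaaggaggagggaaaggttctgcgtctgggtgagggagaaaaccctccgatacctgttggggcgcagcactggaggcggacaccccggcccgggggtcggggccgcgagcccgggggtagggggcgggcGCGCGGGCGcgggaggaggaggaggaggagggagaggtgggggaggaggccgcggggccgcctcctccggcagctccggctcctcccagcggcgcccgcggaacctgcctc

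Matches of 5 short motifs were counted on both strands of these windows. The cAMP response element, bound by factors of the CREB and ATF families, was found once in DUSP1, at -125 to -118 from the start, and at 2 places in DUSP8, at -118 to -111 and -74 to -67. It occurs in 1.85% of all 35116 RefSeq windows of the same length. The EGR element, bound by the early growth response factors, was found at -111 to -103 in DUSP16 and at -103 to -95 and -93 to -85 in DUSP2, and occurs in 9.43% of all windows. No match to TGANTCA (AP-1, 7.71% of windows), GAANNTTC (the core of the heat shock element, 6.77%) or TGATGNAA (the C/EBP-ATF element, 3.62%) lay in any member's window, and DUSP6, DUSP7, DUSP9 and DUSP10 had no match to any of the 5. A match is a description and not a shown binding site, and a window without one says nothing of the factor.

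**Figure D1:**
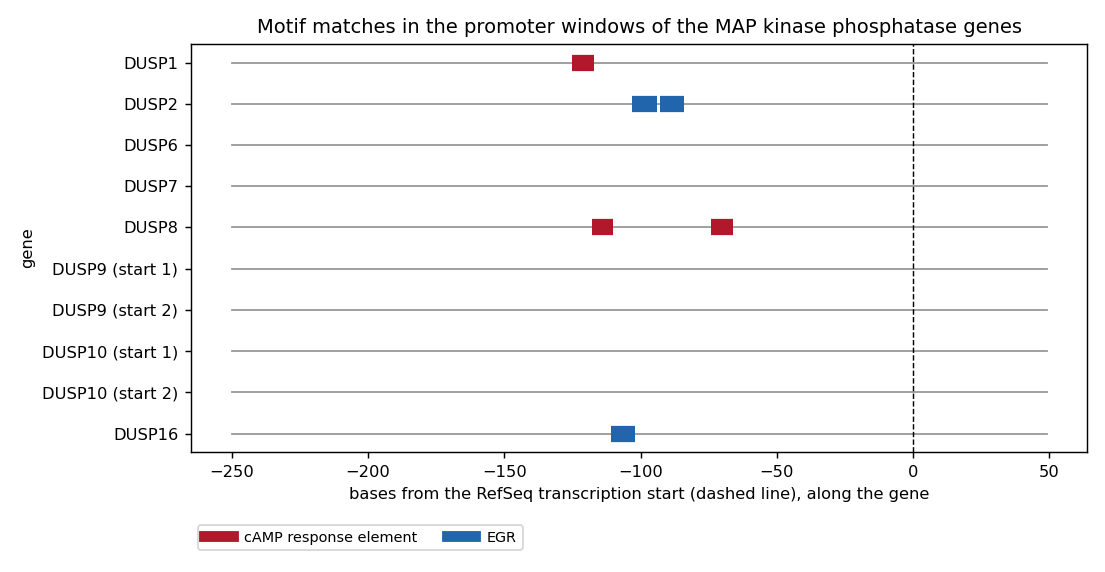
Positions of motif matches in the promoter windows of 8 MAP kinase phosphatase genes (10 windows, since DUSP9 and DUSP10 have 2 starts each), in bases from the RefSeq transcription start. Red blocks are cAMP response element matches, in DUSP1 and DUSP8, and blue blocks EGR element matches, in DUSP2 and DUSP16, all within the window from -125 to -67.

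The first comparison asked how the family responded to SA100. DUSP1, DUSP10, DUSP8, DUSP16 and DUSP4 rose with SA100 in all 6 lines, by 15.4-fold, 9.07-fold, 3.33-fold, 2.11-fold and 1.78-fold. No member was lower, and DUSP2, DUSP5, DUSP6, DUSP7 and DUSP9 did not pass the test (limma across lines, adjusted p under 0.05). The 5 of 10 members called higher stand against 2.11% of all genes tested, and 0 called lower against 0.952%. The median log2 change was 0.70 over the 10 members and 0.04 over all genes tested. In such bulk RNA, a larger share of responding cells and more transcript per cell cannot be told apart.

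**Figure D2:**
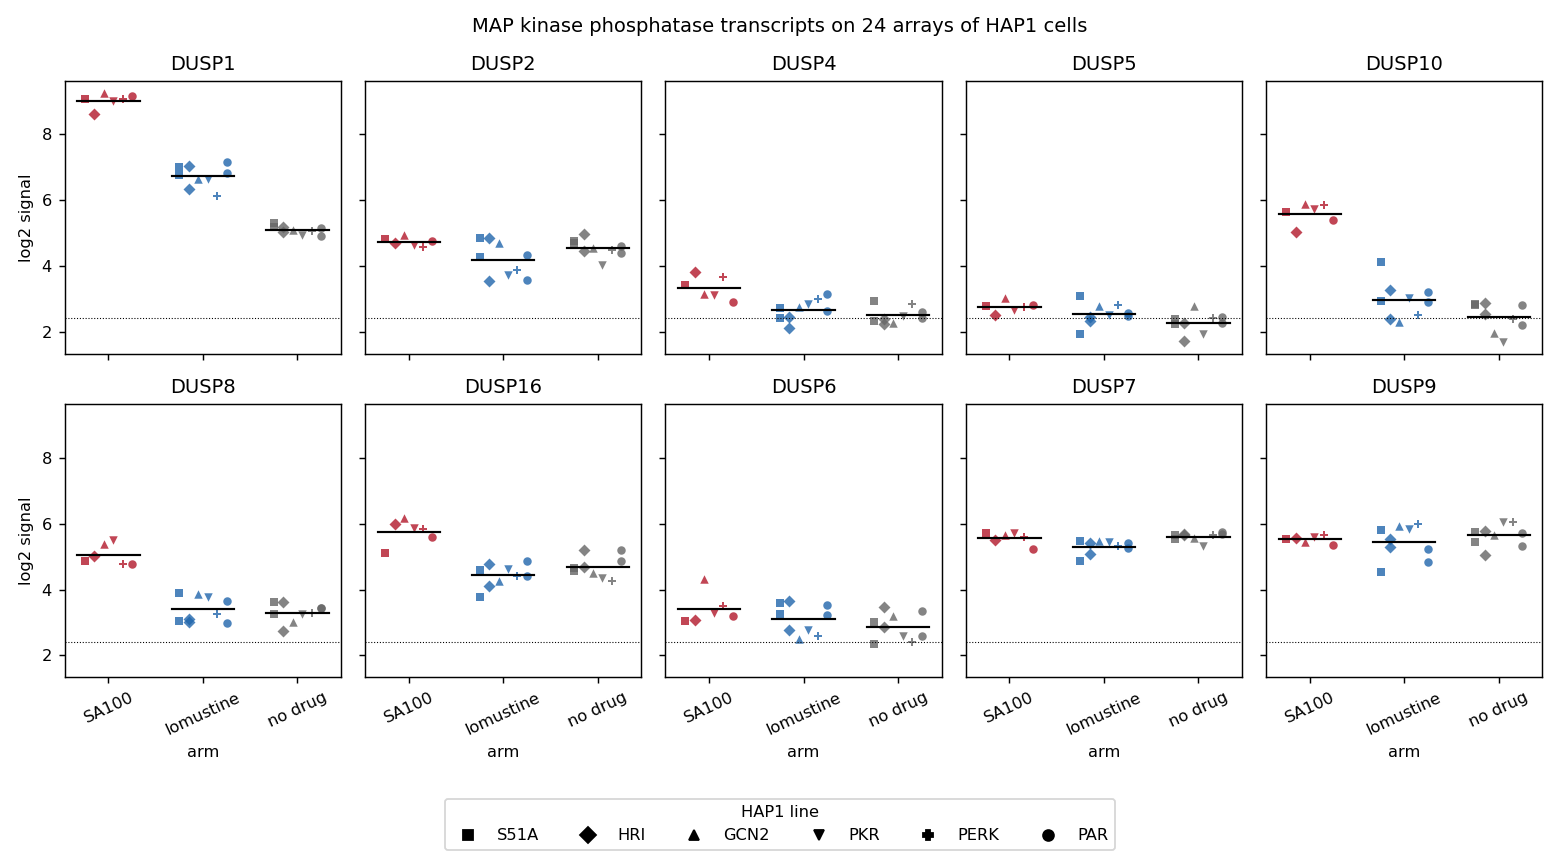
Log2 signal (y axis, the same in every panel) of the 10 MAP kinase phosphatase genes on each array of HAP1 cells with SA100 (6 arrays, red), lomustine (9, blue) and no drug (9, grey). Symbols are the lines, bars the means and the dotted line the median of all values (2.42). The 3 arms of DUSP1 lie apart from one another, and the SA100 arrays of DUSP10 and DUSP8 lie above all others.

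Among the inducible nuclear enzymes, DUSP1, the prototype of the family, which acts on p38, JNK and ERK, moved most. DUSP1 (probe set 17002846) had log2 signals of 8.61 to 9.25 with SA100 (median 9.07), against 4.93 to 5.32 with no drug (median 5.11). Its arms did not overlap, and the 6 SA100 arrays lay more than 3 log2 units above the highest untreated array. The means were 9.03 (SD 0.222, n = 6) with SA100 and 5.11 (SD 0.124, n = 9) with no drug, a log2 change of 3.94 (SE 0.130, 95% interval 3.68 to 4.21, adjusted p = 1.06e-14). By size of change DUSP1 ranked 4 among the 17339 genes.

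DUSP4 encodes a nuclear phosphatase close to DUSP1 in sequence. DUSP4 (probe set 17075973) lay at 2.92 to 3.84 with SA100 (median 3.29), against 2.24 to 2.94 with no drug (median 2.44). The arms touched, since the SA100 array of PAR was below the highest untreated array, one of S51A. The log2 change was 0.83 (SE 0.153, 95% interval 0.51 to 1.15, adjusted p = 0.00295), and only 19 of the 24 arrays were at or above the median of all values, so the gene was read close to background.

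DUSP5, a nuclear enzyme specific for ERK, and DUSP2, another nuclear member known from activated lymphocytes, did not pass. DUSP5 (probe set 16709128) lay at 2.53 to 3.05 with SA100 (median 2.78), against 1.72 to 2.78 with no drug (median 2.28). SA100 was above no drug in each of the 6 lines, while the arms overlapped. The log2 change was 0.46 (SE 0.131, 95% interval 0.19 to 0.74, adjusted p = 0.0579). Its untreated mean, 2.28, was below the median of all values, so the untreated level was not told from background and the size of the change is uncertain, also with lomustine. It did pass, at adjusted p = 0.0307, without the array of S51A with lomustine A and at 0.00802 without B. DUSP2 (probe set 16900441) lay at 4.57 to 4.96 with SA100 (median 4.74), against 4.05 to 4.98 with no drug (median 4.57), and the SA100 values lay within the range of the untreated ones. The log2 change was 0.21 (SE 0.169, 95% interval -0.14 to 0.56, adjusted p = 0.589).

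All 3 genes for enzymes that prefer JNK and p38 rose with SA100. DUSP10 (probe set 16699533) lay at 5.05 to 5.90 with SA100 (median 5.70), against 1.71 to 2.88 with no drug (median 2.54). The arms did not overlap, and the lowest SA100 array, HRI, was more than 2 log2 units above the highest untreated one. The means were 5.60 (SD 0.328, n = 6) with SA100 and 2.47 (SD 0.426, n = 9) with no drug, a log2 change of 3.18 (SE 0.220, 95% interval 2.72 to 3.64, adjusted p = 3.92e-09), rank 6 among all genes tested. The untreated mean was just above the median of all values and 4 of the 9 untreated arrays were below it, so the gene was near background before treatment and the size of the change is uncertain.

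DUSP8 (probe set 16734271), best known from brain and heart, lay at 4.76 to 5.50 with SA100 (median 4.94), against 2.73 to 3.62 with no drug (median 3.28). Its arms did not overlap either, and arrays that do not overlap in this direction occurred in 1.11% of all genes. The means were 5.05 (SD 0.317, n = 6) with SA100 and 3.29 (SD 0.284, n = 9) with no drug, a log2 change of 1.74 (SE 0.169, 95% interval 1.39 to 2.09, adjusted p = 7.99e-07, rank 33). The 2 members whose promoter windows hold the cAMP response element, DUSP1 and DUSP8, are among the 3 members without overlap. DUSP10, the other, has no match in either of its windows. Only 8 of the 10 members have a window, and DUSP4, which also rose, has none. A link between the element and the response was not tested.

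DUSP16 (probe set 16761631), a phosphatase of JNK that shuttles between nucleus and cytoplasm, lay at 5.11 to 6.18 with SA100 (median 5.85), against 4.26 to 5.20 with no drug (median 4.64). Only the SA100 array of S51A, the lowest at 5.11, fell within the range of the untreated arrays. The log2 change was 1.07 (SE 0.169, 95% interval 0.72 to 1.43, adjusted p = 0.000534, rank 80).

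None of the 3 genes for cytoplasmic ERK phosphatases passed. DUSP6 (probe set 16768297), the classical feedback phosphatase of ERK, lay at 3.04 to 4.34 with SA100 (median 3.24), against 2.35 to 3.47 with no drug (median 2.86). The arms overlapped, and of the SA100 arrays GCN2 (4.34) and PERK (3.49) were above every untreated one. The log2 change was 0.56 (SE 0.224, 95% interval 0.09 to 1.02, adjusted p = 0.204), higher in 5 of 6 lines. DUSP7 (probe set 16954697), a close relative of DUSP6, lay at 5.22 to 5.72 with SA100 (median 5.61), against 5.33 to 5.74 with no drug (median 5.65), and DUSP9 (probe set 17108056), known for its part in placental development in mice, at 5.35 to 5.65 with SA100 (median 5.55), against 5.06 to 6.05 with no drug (median 5.72). The arms overlapped in both genes, and the SA100 values of DUSP9 lay within the range of the untreated ones. The intervals of the log2 change were -0.28 to 0.17 for DUSP7 (adjusted p = 0.864) and -0.55 to 0.15 for DUSP9 (adjusted p = 0.613), so a 2.11-fold rise like that of DUSP16 lay outside both. No test compared the enzyme classes with one another.

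The comparison of lomustine with no drug uses the same untreated arrays as the SA100 comparison. With lomustine, DUSP1 was the only member that passed the test, 3.09-fold higher, and the other 9 did not pass in either direction. This 1 of 10 stands against 0.248% of all genes called higher and 0.779% called lower. The median change was 0.14 over the members and -0.04 over all genes tested.

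DUSP1 lay at 6.12 to 7.17 with lomustine (median 6.77), against 4.93 to 5.32 with no drug (median 5.11). The arms did not overlap, which in this direction held for 0.0634% of all genes, and PERK had the lowest lomustine array and PAR the highest. The means were 6.73 (SD 0.343, n = 9) with lomustine and 5.11 (SD 0.124, n = 9) with no drug, a log2 change of 1.63 (SE 0.115, 95% interval 1.39 to 1.86, adjusted p = 2.57e-08), rank 7 among the genes tested. DUSP1 was also 1 of 5 genes of 17339 (0.0288%) in which all SA100 arrays lay above all lomustine arrays and these above all untreated arrays. The others were DNAJB1, a co-chaperone, HMOX1, which degrades haem, PPP1R15A, which directs a phosphatase to eIF2-alpha, and ZFAND2A, a proteasome-associated protein gene inducible by arsenite.

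Of the members that rose with SA100, DUSP10 had the next largest log2 change with lomustine. It lay at 2.30 to 4.14 with lomustine (median 2.93), against 1.71 to 2.88 with no drug (median 2.54), and was higher in 6 of 6 lines. The arms overlapped, the highest value came from S51A array A, and array B of the same group was 1.21 lower. The log2 change of 0.50 (SE 0.195, 95% interval 0.09 to 0.90) had an adjusted p of 0.241. DUSP8 lay at 2.98 to 3.90 with lomustine (median 3.25), against 2.73 to 3.62 with no drug (median 3.28), with an interval of -0.20 to 0.42. DUSP16 lay at 3.78 to 4.87 with lomustine (median 4.42), against 4.26 to 5.20 with no drug (median 4.64), with an interval of -0.58 to 0.04. DUSP4 lay at 2.13 to 3.16 with lomustine (median 2.73), against 2.24 to 2.94 with no drug (median 2.44), with an interval of -0.10 to 0.46. These 3 genes overlapped between the arms over most of their range, and a 1.78-fold rise like that of DUSP4 with SA100 lay outside each interval.

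The remaining members had small differences with lomustine. DUSP5 lay at 1.95 to 3.09 with lomustine (median 2.51), against 1.72 to 2.78 with no drug (median 2.28), and the log2 change was 0.28 (95% interval 0.04 to 0.52, adjusted p = 0.275). DUSP6 lay at 2.51 to 3.66 with lomustine (median 3.24), against 2.35 to 3.47 with no drug (median 2.86), and the log2 change was 0.23 (95% interval -0.18 to 0.64, adjusted p = 0.63). Both arms overlapped widely in each gene. DUSP2 lay at 3.57 to 4.85 with lomustine (median 4.29), against 4.05 to 4.98 with no drug (median 4.57), a log2 change of -0.36 (95% interval -0.68 to -0.05, adjusted p = 0.266). DUSP7 lay at 4.88 to 5.48 with lomustine (median 5.40), against 5.33 to 5.74 with no drug (median 5.65), a log2 change of -0.30 (95% interval -0.50 to -0.10, adjusted p = 0.144). DUSP9 lay at 4.52 to 6.0 with lomustine (median 5.55), against 5.06 to 6.05 with no drug (median 5.72), a log2 change of -0.21 (95% interval -0.52 to 0.11, adjusted p = 0.566). DUSP2, DUSP7 and DUSP9 were each lower with lomustine in 5 of 6 lines without passing, and the lowest DUSP7 and DUSP9 values came from S51A with lomustine B, the array that stood apart.

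**Figure D3:**
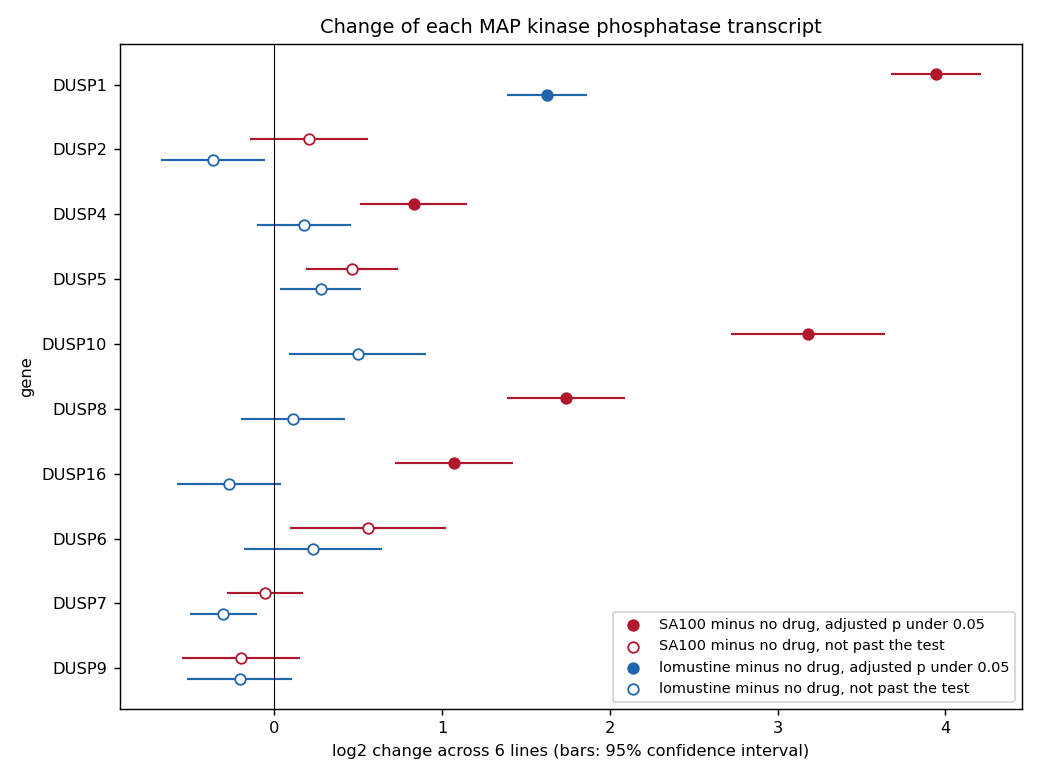
Log2 change of each MAP kinase phosphatase gene across 6 lines (x axis) for SA100 minus no drug (red, upper point) and lomustine minus no drug (blue, lower point), with 95% confidence intervals as bars. Filled points passed the test (5 with SA100, 1 with lomustine) and open points did not.

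SA100 was also set against lomustine directly, at different concentrations (100 and 200 µM) and the same time, so the difference is one between these 2 treatments as given. Higher with SA100 were 6 of 10 members, against 5.48% of all genes tested, and 0 lower, against 0.473%. DUSP10 was 6.42-fold higher (log2 change 2.68, SE 0.220, adjusted p = 9.83e-08), at 5.05 to 5.90 with SA100 and 2.30 to 4.14 with lomustine. DUSP1 was 4.99-fold higher (2.32, SE 0.130, adjusted p = 2.63e-10), at 8.61 to 9.25 with SA100 and 6.12 to 7.17 with lomustine. DUSP8 was 3.09-fold higher (1.63, SE 0.169, adjusted p = 4.08e-06), at 4.76 to 5.50 with SA100 and 2.98 to 3.90 with lomustine. DUSP16 was 2.54-fold higher (1.34, SE 0.169, adjusted p = 5.05e-05), at 5.11 to 6.18 with SA100 and 3.78 to 4.87 with lomustine. In these 4 genes no SA100 array overlapped a lomustine array, as in 1.39% of all genes tested.

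DUSP4 was 1.57-fold higher with SA100 than with lomustine (0.65, SE 0.153, adjusted p = 0.0148), with arrays that overlapped. Without the HRI line its adjusted p was 0.089 and without the PERK line 0.0613. DUSP2 was 1.49-fold higher (0.57, SE 0.169, adjusted p = 0.0472), at 4.57 to 4.96 with SA100 and 3.57 to 4.85 with lomustine. This call was at the threshold and was lost in 20 of 29 other settings, including leaving out the PAR line (adjusted p = 0.129), the PKR line (0.156), the PERK line (0.143) or the array of PAR with lomustine A (0.0769). Not passing were DUSP7 (95% interval 0.02 to 0.47), DUSP6 (-0.14 to 0.79), DUSP5 (-0.09 to 0.46) and DUSP9 (-0.34 to 0.36).

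The lines allow the question of whether the eIF2-alpha change or the loss of 1 of its kinases alters the response of the family. DUSP1 rose with SA100 in every line, and no member's response to either treatment was shown to differ between an edited line and PAR. With SA100, the log2 change of DUSP1 was 3.82 in S51A (adjusted p = 0.00397), 3.49 in HRI (0.00473), 4.13 in GCN2 (0.00744), 4.07 in PKR (0.00435), 3.99 in PERK (0.0105) and 4.12 in PAR (0.00184). These are the adjusted p-values of limma with 1 mean per group, in which a group with 1 array borrows its spread from the 6 duplicated groups. The calls stand against 0.0288% of all genes called higher in S51A, 0.0173% in HRI, 0.0577% in GCN2, 0.0634% in PKR, 0.0404% in PERK and 0.0288% in PAR. Called lower were 0.00577% of genes in HRI and in GCN2 and none in S51A, PKR, PERK or PAR.

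DUSP10 had SA100 changes of 2.82 in S51A, 2.34 in HRI, 3.92 in GCN2, 4.02 in PKR, 3.48 in PERK and 2.87 in PAR. Only that in PKR passed within its line (adjusted p = 0.0454), and the untreated arrays below the median of all values were those of GCN2 (1.98), PKR (1.71), PERK (2.39) and PAR B (2.23). DUSP10 and DUSP1 made up the 7 calls among 60 tests of members within lines with SA100, and 25 of the 60 had an unadjusted p under 0.05. Without the array of S51A with lomustine A there were 12 calls within lines over both treatments, and without B there were 11. With a replicate block there were 4, all of DUSP1, and its calls in HRI and PERK were lost. Leaving out either untreated array of S51A or of HRI gave 5 calls, without that of DUSP1 in the line concerned.

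DUSP8 had SA100 changes of 1.43 in S51A, 1.85 in HRI, 2.37 in GCN2, 2.26 in PKR, 1.50 in PERK and 1.33 in PAR. DUSP16 had changes of 0.51 in S51A, 1.04 in HRI, 1.67 in GCN2, 1.50 in PKR, 1.58 in PERK and 0.55 in PAR. Both had values on the same side of 0 in every line, with the smallest in S51A or PAR, and none passed within a line.

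DUSP4 had SA100 changes of 0.79 in S51A, 1.52 in HRI, 0.88 in GCN2, 0.64 in PKR, 0.83 in PERK and 0.39 in PAR. The change in HRI minus that in PAR was 1.13 (SE 0.480, 95% interval 0.07 to 2.19), the only one of 50 such SA100 differences with an unadjusted p under 0.05 (adjusted p = 1). Of these 50 differences over 10 members and 5 lines, which share the PAR arrays, 0 passed in limma, and over all genes tested at most 0.00577% were called in either direction for any line. For DUSP1 with SA100 the difference from PAR was -0.31 in S51A (95% interval -1.33 to 0.72). That of DUSP16 was 1.11 in GCN2, 0.95 in PKR and 1.03 in PERK, against -0.04 in S51A and 0.49 in HRI. That of DUSP10 was 1.05 in GCN2, 1.15 in PKR and 0.61 in PERK, against -0.05 in S51A and -0.53 in HRI. Each line had 1 SA100 array, so differences of this size were neither shown nor excluded.

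With lomustine, the log2 change of DUSP1 was 1.65 in S51A, 1.58 in HRI, 1.53 in GCN2, 1.69 in PKR, 1.04 in PERK and 1.96 in PAR. It was above 0 in each line with an unadjusted limma p under 0.05, and none of the 60 lomustine tests of members within lines passed after adjustment (smallest adjusted p = 0.109, for DUSP1 in PAR). With the array of S51A with lomustine A left out, a lomustine call of DUSP1 within a line did appear. Of all genes tested, 0.00577% were called in each direction with lomustine within S51A, and none within any other line. Of the 60 tests, 7 had an unadjusted p under 0.05, the other being DUSP10 in PKR. The response of PERK minus that of PAR was -0.91 for DUSP1 (SE 0.464, 95% interval -1.94 to 0.11, adjusted p = 1), and that of S51A minus PAR was -0.31 (95% interval -1.15 to 0.53). Among the 50 lomustine differences from PAR, 0 passed in limma and 0 had an unadjusted p under 0.05.

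**Figure D4:**
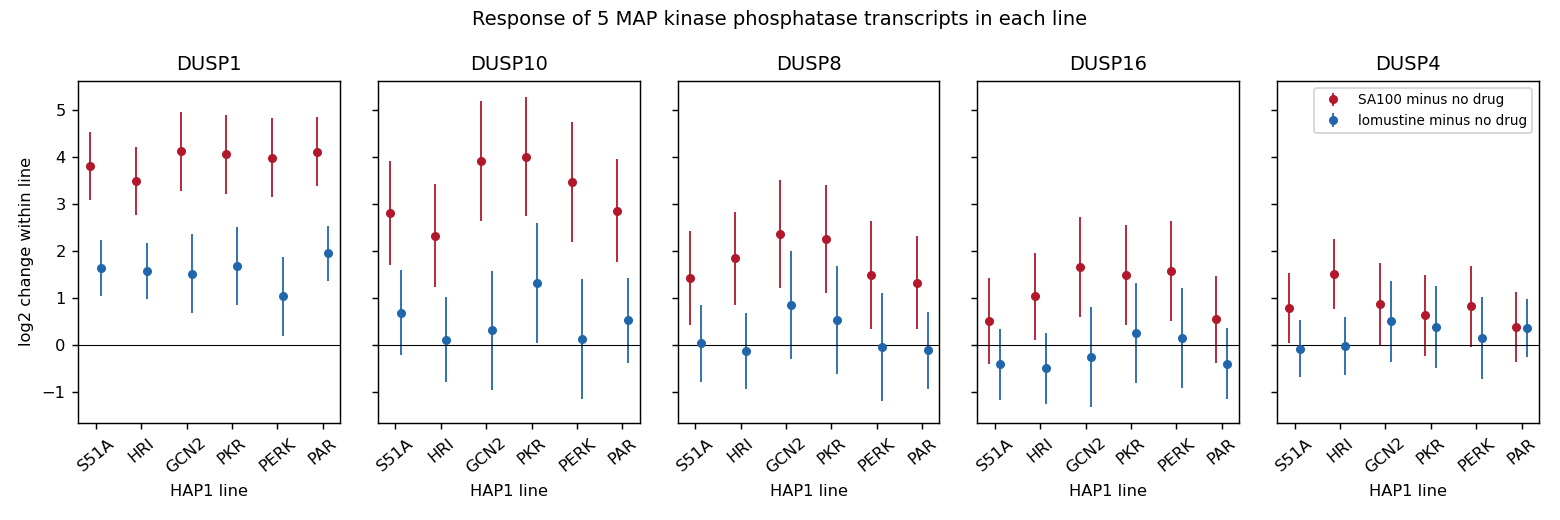
Log2 change within each HAP1 line for the 5 genes called with SA100, for SA100 minus no drug (red) and lomustine minus no drug (blue), with 95% confidence intervals as bars. The SA100 changes of DUSP1 lie between 3.49 and 4.13 in all 6 lines, and for each of the 5 genes the intervals of different lines overlap within a treatment.

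Levels averaged over the arms were also set against PAR, in 50 comparisons that share the PAR arrays. In limma 0 passed, and 3 had an unadjusted p under 0.05. DUSP9 was 0.62 above PAR in PERK (SE 0.233, adjusted p = 0.661) and 0.54 above it in PKR (SE 0.233, adjusted p = 1). For DUSP16, S51A minus PAR was -0.44 (SE 0.201, adjusted p = 0.45). Of all genes tested, 1.29% were called higher and 0.894% lower in S51A, 0.0865% and 0.0577% in HRI, 0.0577% and 0.0115% in GCN2, 0.098% and 0.0807% in PERK, and none in PKR.

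The duplicated groups show how far arrays A and B of a group differed for these genes. They cover only untreated and lomustine arrays of S51A, HRI and PAR. The differences between A and B of DUSP1 had a median of 0.25 over 6 groups and reached 0.72 in HRI with lomustine, where the signals were 6.34 and 7.06. DUSP10 reached 1.21, DUSP9 1.28 and DUSP5 1.14, each in S51A with lomustine, and DUSP2 reached 1.29 in HRI with lomustine. The SA100 changes across lines of the 5 genes called were each larger than the largest such difference of the same gene. This sets a change over all lines against single arrays, and no SA100 group was duplicated, so its spread was not measured.

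The rest of the pathway gives a frame for the family. Of 8 MAP kinase genes tested, 0 passed in limma in any of the 3 comparisons of arms. The smallest p belonged with SA100 to MAPK12, a p38 kinase (log2 change 0.26, adjusted p = 0.177), and MAPK11, another p38 kinase (0.19, 0.542), and with lomustine to MAPK7, which encodes ERK5 (-0.28, 0.152), and MAPK9, which encodes a JNK (-0.45, 0.268). The 6 MAP kinase kinase genes tested, which encode the enzymes that activate the kinases, likewise had 0 calls, with MAP2K4 first with SA100 (0.32, adjusted p = 0.366) and MAP2K2 first with lomustine (-0.23, adjusted p = 0.49). Median changes with SA100 were 0.09 for the MAP kinases and -0.04 for the MAP kinase kinases, against 0.04 for all genes tested.

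Genes that mark or limit ERK signalling were called in small numbers. Of 10 ERK output genes tested, 2 rose with SA100, where 2.11% of all genes did: IER3, an early survival gene, by 0.54 (SE 0.121, adjusted p = 0.0154) and SPRY2, a feedback inhibitor of receptor signalling, by 0.47 (SE 0.119, adjusted p = 0.032). With lomustine 2 fell, where 0.779% of all genes did: PHLDA1 by 0.55 (SE 0.105, adjusted p = 0.00956) and EPHA4, an ephrin receptor, by 0.53 (SE 0.127, adjusted p = 0.0478). In SA100 minus lomustine, where 5.48% of all genes were called higher, EPHA4 was higher by 0.98 (SE 0.144, adjusted p = 0.000319) and SPRY2 by 0.52 (SE 0.119, adjusted p = 0.0133). SPRY2 was also the only one of 6 Sprouty and Spred genes tested that passed with SA100, and none passed with lomustine.

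Among other phosphatases, 1 of 6 tested that act on MAP kinases rose with SA100 (2.11% of all genes did), PPM1D, a p53-induced serine and threonine phosphatase that acts on p38, by 1.04 (SE 0.154, adjusted p = 0.000269). Its value with lomustine was 0.34 (SE 0.136, adjusted p = 0.259), and SA100 minus lomustine was 0.70 (SE 0.154, adjusted p = 0.00977). Of 14 atypical dual-specificity phosphatases and relatives, which lack the kinase-binding domain, 0 passed in limma with SA100 or lomustine. DUSP3 came first by p with SA100 (0.42, adjusted p = 0.0789), and it was higher with SA100 than with lomustine by 0.61 (SE 0.127, adjusted p = 0.00718). Their median change with SA100 was -0.0029, against 0.70 for the 10 MAP kinase phosphatases.

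The genes whose patterns were most like those of the responding members were found by Pearson r over the 18 means of line and arm, among 17329 genes. These points share arms and arrays, so r is a description. DUSP1 was closest to FOS (r = 0.979) and JUN (0.977), which encode the AP-1 factor, and to PPP1R15A (0.976). DUSP10 was closest to the chaperone genes HSPH1 (0.972) and SERPINH1 (0.959) and to SERTAD3 (0.962). DUSP8 was closest to HMOX1 (0.963), the chaperone gene HSPA6 (0.944) and ISL2 (0.943). DUSP16 was closest to KLF6 (0.959), TSTD2 (0.956) and the co-chaperone gene CHORDC1 (0.940). DUSP4 was less close to any gene, with ZBTB21 first (0.880), then OSGIN1 (0.875) and RN5S298 (0.858).

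Among the members themselves, DUSP1 and DUSP10 were most alike over the 18 means (r = 0.948), then DUSP8 and DUSP10 (0.933) and DUSP1 and DUSP8 (0.906). DUSP16 had r = 0.878 with DUSP8 and 0.868 with DUSP10. The lowest r within the family was -0.678, between DUSP6 and DUSP9, in which neither gene passed a test between arms.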

How the data were processed

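Total RNA of HAP1 lines was measured on 24 Affymetrix arrays. The authors deposited log2 values for 53617 probe sets, which the submitters' processing notes trace to RMA and the R package affy; versions and the genome build are not given in the sources used here. Probe sets were named through the array's annotation: 23558 had 1 symbol, 2155 several and 27904 none, and only the first were used. Where a gene had several (618 genes), that of the highest mean stood for it; each member had a single one. Genes were tested where at least 2 arrays reached 2.42, which left out 4770.

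Tests were two-sided, with R 4.3.3 and limma 3.58.1, Benjamini-Hochberg adjustment over the 17339 genes and a threshold of 0.05. A model of arm and line over all arrays (16 residual degrees of freedom) gave the comparisons of arms and of lines. A model with 1 mean for each of 18 groups (6 residual degrees of freedom) gave those within lines. In simulated data, with noise independent between arrays and no level differences between lines, the model of arm and line recovered most of the larger known changes. The check set no bar for recovery of the smaller ones. For the model with 1 mean per group, only the mean estimate for SA100 in PAR was checked, and not its calls. Arrays give no read depth, and their number limits the precision.

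Named genes are the 10 members, up to 4 genes past the test from each pathway list (or the 2 of smallest p), the 3 genes most like each member that rose with SA100, and the genes that name the lines. The genes in the 3-arm separation and the markers were named beyond this rule, after their values were seen. Members and lists were chosen with earlier results of these data known. Promoter windows come from RefSeq and were searched by exact match. Alternatives in filter, probe set summary, normalization, prior, arrays used and blocking are given at the close.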

Additional observations from a re-analysis of the deposited data

Results flagged for a closer look

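Among 30 groups of a member and an arm, 2 held an array far from the rest, where chance flags about 1 in 20 groups. DUSP1 in HRI with SA100, at 8.61, was the lowest of the 6 SA100 arrays, which otherwise lay between 9.03 and 9.25; it was still above all arrays with lomustine or no drug. DUSP6 in GCN2 with SA100, at 4.34, was the highest of the 6 SA100 arrays, which otherwise lay between 3.04 and 3.49. Each rests on 1 array, so a repeat of the group was not at hand.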

How the results depend on the processing

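Over 29 other settings, 864 member values were recomputed: 822 kept direction and side of the threshold, 24 lost the call, 8 gained it and 10 changed sign. Part of this was fixed in advance. The filter, prior and blocking settings left the log2 change as it was, so direction could not move there. The mean of all probe sets likewise moved no log2 change of a member, since each member had a single probe set. Across lines, the SA100 calls of DUSP1, DUSP10, DUSP8, DUSP16 and DUSP4 and the lomustine call of DUSP1 held wherever the gene was tested; a stricter filter drops DUSP4 and DUSP5, which leaves 4 members called with SA100. Lost calls were DUSP2 in SA100 minus lomustine (20 of 29 settings, log2 change 0.47 to 0.65, adjusted p 0.00714 to 0.319) and DUSP4 in the same comparison (4 of 28, adjusted p up to 0.11, from the mean of line-wise contrasts). DUSP5 with SA100 gained the call in 8 of 28 settings, down to adjusted p = 0.00697 without the arrays of PAR with lomustine A and of S51A with lomustine B, a setting chosen after seeing the data. Changes of sign were all in values near 0: DUSP7 with SA100 was 0.0457 without PAR (-0.1222 to 0.0457 over lines and arrays left out), and DUSP9 in SA100 minus lomustine was -0.15 after quantile normalization, -0.0391 by the mean of line-wise contrasts, -0.07 without PAR, -0.08 without S51A, -0.01 without HRI, -0.04 without PAR lomustine A, -0.10 without S51A lomustine B, -0.0018 without HRI lomustine B and -0.17 without both arrays named above (up to 0.084, without GCN2). The 7 calls within lines became 4 with a replicate block and ran over 5 to 12 when arrays were left out in turn. The letters gave no common pairing of arrays over the lines, and pairing was not tested. The r of the A minus B differences between arms was 0.334 in PAR, -0.388 in S51A and -0.561 in HRI. With the replicate block, 1 member was called with lomustine, 6 with SA100 and 6 in SA100 minus lomustine. A crossed block, also added later, swapped the letters of the lomustine arrays in S51A and HRI. It gave 1, 6 and 6 calls in the same comparisons and 6 within lines. Calls over all genes moved more: 530 with SA100 (136 to 1209 over settings), 178 with lomustine (22 to 423) and 1032 in SA100 minus lomustine (104 to 1746). The share of these that were higher was 68.9% with SA100 (58.0% after quantile normalization, up to 83.9% over settings), 24.2% with lomustine (53.7% after quantile normalization, 14.6% without S51A lomustine A, 77.3% by the mean of line-wise contrasts) and 92.1% in SA100 minus lomustine (66.5% after quantile normalization, up to 97.1%). The cause of these moves was not tested. Low signal limits DUSP4, DUSP5 and DUSP10, whose untreated means lie near or below the median of all values.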

Other observations

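Promoter matches were also counted over all genes tested, as a description without a test. Of 12652 tested genes with a RefSeq window, 2.21% were called higher with SA100. Of the 420 with a cAMP response element, 27 were called higher (6.43%), DUSP1 and DUSP8 among them. For the core of the heat shock element the count was 35 of 858 (4.08%) and for the C/EBP-ATF element 16 of 384 (4.17%). For AP-1 it was 18 of 957 (1.88%) and for the EGR element 37 of 2230 (1.66%), DUSP16 included. The median change of the genes with the cAMP response element was 0.06, against 0.04 for all genes with a window, so most such genes did not share the response of DUSP1. With lomustine, 2 of the 420 were called higher (0.476%), DUSP1 among them, against 0.3% of all genes with a window.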
